A study of Sus scrofa with 6 samples.

Results

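Nuclear maternal-effect factors are proteins that the oocyte lays down as mRNA or protein and that act in the nucleus of the egg and early embryo, on chromatin, on imprinted DNA methylation or on transcription. The group was set by name as 9 genes: NPM2, SMARCA4, CTCF, DPPA3, ZFP57, TRIM28, BNC1, HSF1 and UBE2A. Of these, 8 were matched to rows among 19300 genes, and all 8 passed the filter of a mean of 1 FPKM (fragments relative to transcript length and library size) that 11493 genes passed. TRIM28, the corepressor that ZFP57 recruits, matched no row by gene ID or transcript accession and was not analysed here.

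The genes were compared between 3 BCB-negative and 3 BCB-positive pig oocytes, each sequenced as a single cell. Growing oocytes turn the dye brilliant cresyl blue (BCB) colourless, so BCB-negative oocytes are generally taken as still growing and BCB-positive oocytes as fully grown. All were at the germinal vesicle stage, the arrest before meiosis resumes, and had no maturation culture. They came from antral follicles of 3 to 6 mm and were freed of cumulus cells and of the zona pellucida before lysis, and the cDNA was primed on poly(A) tails. No genotype, breed, age or animal is named for any oocyte, so cells of a class may share an animal and differences are given without a test.

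At the germinal vesicle stage transcription is falling silent, and stored mRNAs are kept for use after meiosis and fertilisation. NPM2, nucleoplasmin, is a histone chaperone that unpacks sperm chromatin, and DPPA3 and ZFP57 keep maternal methylation and imprints from being erased. Loss of these factors in the mouse oocyte harms the embryo at its first divisions or its imprints, although the oocyte itself can often be fertilised.

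Expected counts per oocyte lay between 7122749 and 9238987. BCB-positive oocyte 3 stood apart from the rest: its mean correlation with the other oocytes across genes was 0.874, against 0.905 to 0.915 for the others, and its 10 most abundant genes held 9.80% of counts, against 15.6% to 19.0%. Of 16 oocyte markers 15 were matched, led by ZP3 and ZP4 of the zona pellucida with means of 11426 and 5380 FPKM; their sum was lowest in BCB-positive oocyte 3, at 15259 FPKM against 20204 to 32244 FPKM in the others. Of 17 cumulus and granulosa markers 10 were matched; their summed FPKM lay between 152 and 259 in BCB-negative and between 135 and 252 in BCB-positive oocytes. Almost all of it came from KITLG, a mean of 159 FPKM, and INHBA, 25.9 FPKM. The other matched markers of this list were at most 1.79 FPKM in any oocyte, the value of STAR in BCB-positive oocyte 2. Theca and stromal markers, led by DCN (1.07 FPKM) and ACTA2 (0.39 FPKM), summed to at most 3.33 FPKM. Immune markers, led by CD3E (2.29 FPKM) and CD79A (1.10 FPKM), summed to at most 10.3 FPKM. Endothelial markers, led by TEK (10.9 FPKM) and PECAM1 (1.84 FPKM), summed to at most 23.0 FPKM.

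The factors spanned 3 orders of magnitude in abundance and none separated the BCB classes. NPM2 was the most abundant, at 1396 FPKM ± 473 (SD over 6 oocytes), followed by DPPA3 at 339 ± 234, UBE2A at 139 ± 27.9 and HSF1 at 102 ± 20.1 FPKM. CTCF stood at 13.9 ± 3.86, ZFP57 at 5.86 ± 8.25, BNC1 at 1.96 ± 1.94 and SMARCA4 at 1.02 ± 0.83 FPKM. In this order HSF1 and CTCF were the one pair of neighbours whose ranges did not overlap. NPM2 lay above DPPA3 in 5 of 6 oocytes, DPPA3 above UBE2A and UBE2A above HSF1 in 6 of 6, and ZFP57 above BNC1 in 3 of 6. NPM2 ranked between place 43 and place 178 among all genes of an oocyte.

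**Figure D1:**
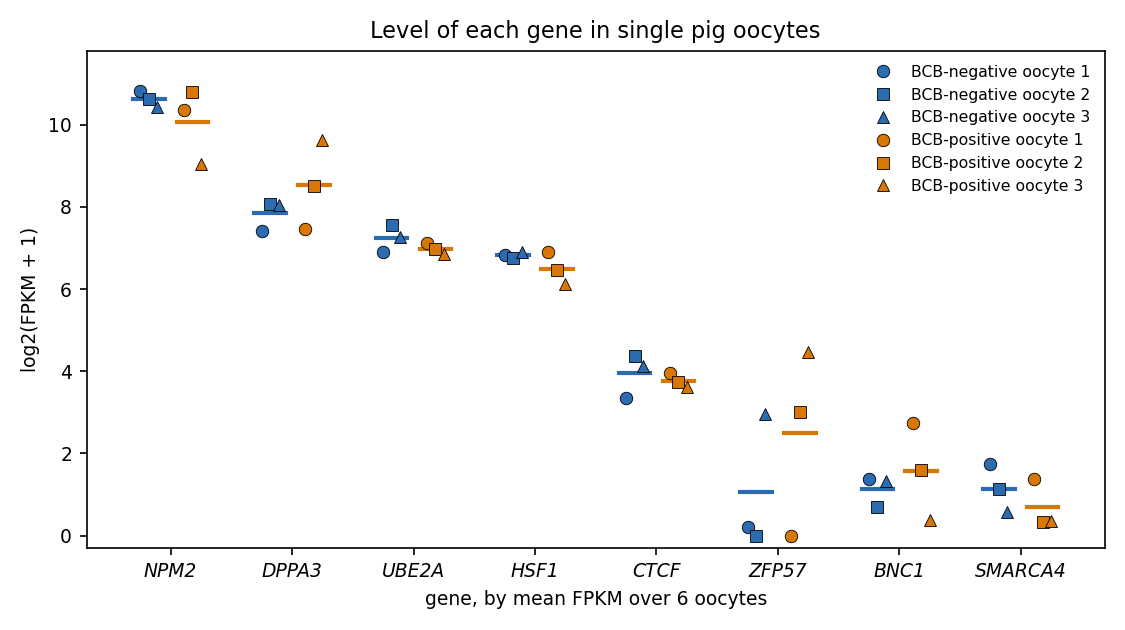
The vertical axis gives log2(FPKM + 1) for each gene on the horizontal axis, ordered by mean FPKM, with a point for each BCB-negative (blue) and BCB-positive (orange) oocyte and a bar at the class mean. The classes overlap for all 8 genes, and BCB-positive oocyte 3 (orange triangle) is the highest for DPPA3 and ZFP57 and the lowest for NPM2.

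By the rule that all oocytes of a class lie beyond all of the other and that log2(FPKM + 1) means differ by 1.5-fold or more, 0 of 8 factors were apart. The background was 8.41% of 11493 genes in either direction, 5.75% higher and 2.66% lower in BCB-positive oocytes, or 661 and 306 genes. With size factors those counts were 522 and 425, and with FPKM scaled to a common sum 818 and 225, and the count of factors stayed at 0 under both. Without regard to size, too, 0 of 8 factors had classes that did not overlap, against 11.5% of all genes (7.44% higher and 4.03% lower). The class mean was higher in BCB-positive oocytes for 3 factors and lower for 5. For 6 of the 8 the difference was smaller than the SD within classes, pooled over both; HSF1 and UBE2A were the exceptions. The median difference was -0.22 for the 8 factors and 0.11 for all genes compared, and -0.08 and 0.05 without BCB-positive oocyte 3.

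**Figure D2:**
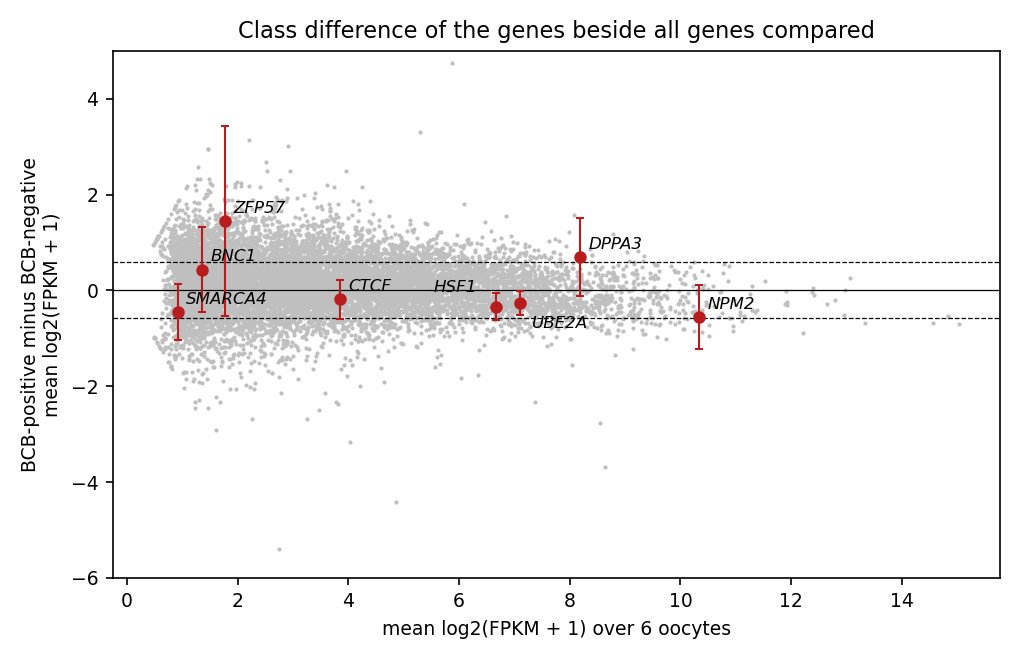
The horizontal axis is the mean log2(FPKM + 1) over 6 oocytes and the vertical axis the class mean of BCB-positive oocytes minus that of BCB-negative ones, with a grey dot for each of 11493 genes. Red points are the 8 factors with the pooled SD within classes as bars, dashed lines mark a 1.5-fold difference, and DPPA3 (0.70) and ZFP57 (1.44) lie beyond it with bars that reach past 0.

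Among the chromatin factors, NPM2 measured, in order of oocyte number, 1812, 1571 and 1375 FPKM across the BCB-negative oocytes and 1316, 1778 and 523 FPKM across the BCB-positive ones. A single oocyte, BCB-positive oocyte 3, was low, at 0.33 times the mean of the other 5, and the remaining BCB-positive oocytes lay within or just below the BCB-negative range. The log2 difference was -0.56 (pooled SD 0.66), and -0.04 without BCB-positive oocyte 3. Without BCB-positive oocyte 2 it was -0.93 and NPM2 was apart and lower, as were 5.46% of all genes. These values rest on 4151 to 12161 counts per oocyte. Oocyte markers, named here after their values were seen, moved both ways in BCB-positive oocyte 3. OOEP, of the subcortical maternal complex, was at 663 FPKM against 1755 to 3850 FPKM in the others. FIGLA, an oocyte transcription factor, was at 53.8 against 178 to 253 FPKM. ZP2 of the zona pellucida was highest there, at 2255 against 1141 to 1571 FPKM. The part of these values in the low NPM2 was not tested.

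NPM1 and NPM3 are the other nucleoplasmins and are expressed in most tissues; NPM1 is abundant in nucleoli. NPM1 measured 263, 302 and 184 FPKM across the BCB-negative oocytes and 227, 363 and 1050 FPKM across the BCB-positive ones. NPM1 was thus highest in the oocyte in which NPM2 was lowest. The ratio of NPM2 to NPM1 in FPKM lay between 4.89 and 7.49 in the other 5 oocytes and was 0.50 in BCB-positive oocyte 3. NPM3 had class means of 45.1 (BCB-negative) and 62.6 FPKM (BCB-positive), with overlapping classes.

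SMARCA4 (also BRG1) is an ATPase that drives the SWI/SNF chromatin remodelling complex. SMARCA4 measured 2.33, 1.18 and 0.48 FPKM across the BCB-negative oocytes and 1.59, 0.26 and 0.28 FPKM across the BCB-positive ones. The highest and lowest values fell in different classes but the classes overlapped, with a log2 difference of -0.45 (pooled SD 0.59). It ran from -0.16 without BCB-negative oocyte 1 to -0.80 without BCB-positive oocyte 1, where SMARCA4 was apart and lower, as were 6.92% of all genes, and was -0.99 with a pseudocount of 0.1 FPKM. The values rest on few reads: 70 counts among 22412543 in BCB-negative oocytes (95% Poisson interval 54.6 to 88.4) and 40 among 25252092 in BCB-positive oocytes (28.6 to 54.5). Of 3 transcripts named for the gene, 1 of 2383 bases had counts, so the level of SMARCA4 mRNA is uncertain.

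SMARCA2 (BRM), the alternative ATPase of the same complex, averaged 3.33 FPKM and exceeded the listed SMARCA4 value in all 6 oocytes. The ratio of SMARCA4 to SMARCA2 lay between 0.044 and 0.73 and shares the uncertainty of the SMARCA4 level. Of 25 symbols listed for SWI/SNF subunits 22 were matched and 18 compared, and 0 of them were apart by class. The most abundant was BRD7, a bromodomain subunit, at a mean of 85.2 FPKM. The median difference of the subunits was 0.14, beside 0.11 for all genes.

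CTCF is the zinc finger protein that insulates chromatin domains and binds the unmethylated allele of the H19 imprint. CTCF measured 9.13, 19.8 and 16.6 FPKM across the BCB-negative oocytes and 14.4, 12.3 and 11.2 FPKM across the BCB-positive ones. The BCB-positive values lay within the BCB-negative range. Its log2 difference was -0.19 (pooled SD 0.40), on 239 to 522 counts per oocyte. Without BCB-negative oocyte 2 the difference was 0.03, and without BCB-negative oocyte 1 it was -0.49, with classes that no longer overlapped. The latter stayed below the 1.5-fold rule, by which 5.53% of all genes were lower in that comparison. The share of all genes without overlap there was not counted.

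CTCF acts with cohesin, the ring complex that extrudes chromatin loops and holds sister chromatids together. Of 18 symbols listed for CTCF partners and cohesin 16 were matched and 12 compared; 1 was apart (8.33%, beside 5.75% of all genes), higher in BCB-positive oocytes, and 0 were lower. That gene was RAD21, a cohesin subunit, with 2.69, 2.67 and 5.41 FPKM across the BCB-negative oocytes and 5.98, 10.8 and 16.2 FPKM across the BCB-positive ones. The RAD21 difference was 1.34 (pooled SD 0.57), and 1.03 once BCB-positive oocyte 3 was left out. SMC3, a core subunit of the same ring and the most abundant gene of the list, averaged 19.2 and 25.9 FPKM with overlapping classes. The list's median was 0.26, and 0.04 without BCB-positive oocyte 3.

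DPPA3 (also stella or PGC7) binds maternal chromatin and shields its methylated DNA from oxidation by TET3 after fertilisation. DPPA3 measured 168, 268 and 263 FPKM across the BCB-negative oocytes and 177, 364 and 793 FPKM across the BCB-positive ones. Oocyte 1 of each class was the lowest, and BCB-positive oocyte 3 was the highest, at 3.20 times the mean of the other 5. Between classes DPPA3 differed by 0.70 (pooled SD 0.81), and 0.15 without BCB-positive oocyte 3. Without BCB-positive oocyte 1 instead, the classes no longer overlapped and the difference was 1.23, in a comparison where 13.7% of all genes were higher by the 1.5-fold rule. DPPA3 rested on 1489 to 8625 counts in an oocyte.

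DPPA3 and NPM2 deviated in opposite directions in BCB-positive oocyte 3. The ratio of NPM2 to DPPA3 was 10.8, 5.86 and 5.23 in BCB-negative oocytes and 7.45, 4.89 and 0.66 in BCB-positive oocytes. In BCB-positive oocyte 3, DPPA3 ranked at place 105 among all genes and NPM2 at place 178. Both measures are shares of the same library, whose depth was the largest of the 6 and whose most abundant genes held the smallest share of counts; the part of those values in the result was not tested.

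ZFP57 is a KRAB zinc finger protein that binds methylated imprinting control regions and brings in TRIM28. ZFP57 measured 0.15, 0 and 6.71 FPKM across the BCB-negative oocytes and 0, 7.04 and 21.2 FPKM across the BCB-positive ones. It was present in some oocytes of each class and at 0 in 1 oocyte of each class, so the classes overlapped. Between classes ZFP57 differed by 1.44 (pooled SD 1.99), and 0.45 without BCB-positive oocyte 3. Without BCB-positive oocyte 1 it was 2.69 and ZFP57 was apart and higher, as were 13.7% of all genes. Counts summed to 44.2 in BCB-negative (95% Poisson interval 32.0 to 59.1) and 231 in BCB-positive oocytes (202 to 263), and 179 of the latter came from BCB-positive oocyte 3. Of 7 transcripts named for the gene, the 4 with counts were all RefSeq models of non-coding RNA, and the 3 protein-coding models had none in any oocyte, so the level of ZFP57 mRNA is uncertain.

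Of 23 symbols listed for proteins of imprint protection, 19 were matched and 15 compared, and 0 were apart by class. DNMT1, the maintenance DNA methyltransferase, had class means of 7100 (BCB-negative) and 5922 FPKM (BCB-positive), more than any other gene of the list, with overlapping classes and a difference of -0.29 (pooled SD 0.26). DNMT1 was 17.1 to 40.4 times as abundant as DPPA3 in 5 oocytes and 5.59 times in BCB-positive oocyte 3. TET3, the oxidising enzyme that DPPA3 counters, measured 1.42, 1.37 and 1.45 FPKM across the BCB-negative oocytes and 1.90, 1.46 and 1.74 FPKM across the BCB-positive ones. The TET3 classes did not overlap, though 1.45 and 1.46 FPKM were neighbours, and the difference of 0.16 was below 1.5-fold. TET3 was the 1 gene without overlap among the 15 compared, where 11.5% of all genes had none. The median difference of the list was 0.16, and 0.15 without BCB-positive oocyte 3.

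**Figure D3:**
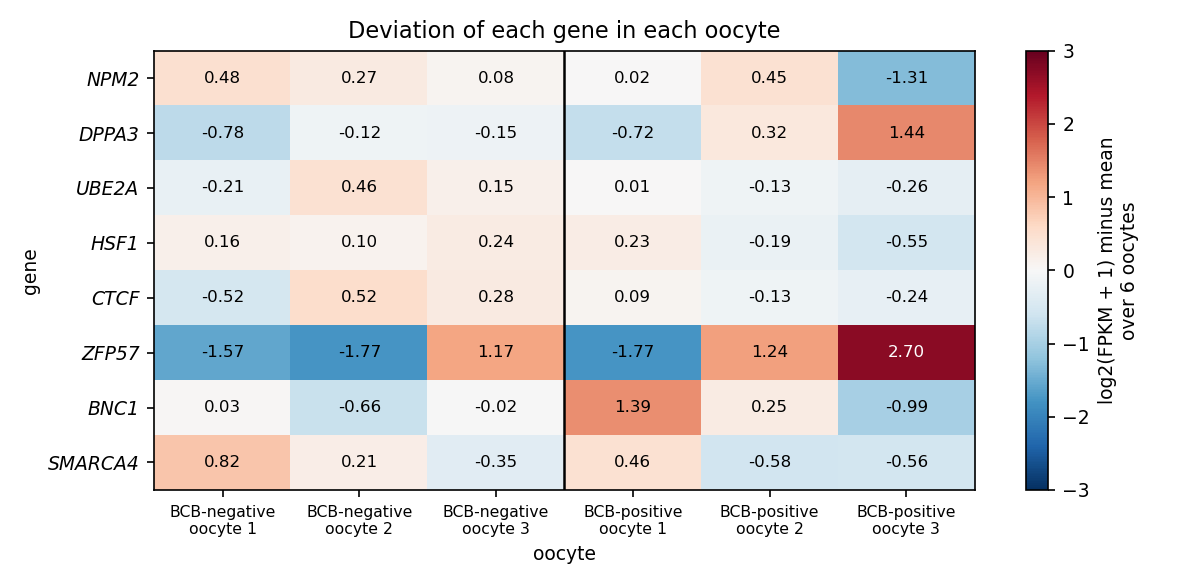
Each cell gives log2(FPKM + 1) of a gene (rows) in an oocyte (columns) minus its mean over the 6 oocytes, from blue (lower) to red (higher), with a line between the BCB classes. BCB-positive oocyte 3 deviates by -1.31 for NPM2, 1.44 for DPPA3 and 2.70 for ZFP57, and BCB-positive oocyte 1 by 1.39 for BNC1.

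BNC1, basonuclin, is a zinc finger protein of oocytes and stem cells of stratified epithelia that binds ribosomal RNA genes and promoters of RNA polymerase II. BNC1 measured 1.60, 0.62 and 1.52 FPKM across the BCB-negative oocytes and 5.70, 2.03 and 0.29 FPKM across the BCB-positive ones. BCB-positive oocytes held both the highest and the lowest value. The log2 difference was 0.43 (pooled SD 0.88); without BCB-positive oocyte 3 the classes no longer overlapped and it was 1.04, where 7.19% of all genes were higher by the 1.5-fold rule. Without BCB-positive oocyte 1 the direction turned, to -0.15. Counts summed to 82 in BCB-negative (95% Poisson interval 65.2 to 102) and 189 in BCB-positive oocytes (163 to 218), of which 132 came from BCB-positive oocyte 1. BNC2, its paralog, averaged 3.35 and 4.32 FPKM, with overlapping classes.

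RNA polymerase I and its initiation factors transcribe the ribosomal RNA genes that BNC1 binds. Of 19 listed symbols 13 were matched and 11 compared; 2 were apart (18.2%, beside 5.75% of all genes), both higher in BCB-positive oocytes, and 0 were lower. TAF1D, a subunit of the initiation factor SL1, measured 12.1, 31.0 and 24.2 FPKM across the BCB-negative oocytes and 47.6, 42.0 and 35.4 FPKM across the BCB-positive ones, a difference of 0.95 (pooled SD 0.49), and 0.58 without BCB-negative oocyte 1, just below 1.5-fold. TAF1B of the same factor had a difference of 0.66, or 0.35 with BCB-positive oocyte 3 left out. With size factors 0 of the 11 were apart. POLR1D, a subunit shared by polymerases I and III, was the most abundant at 3068 and 2299 FPKM, with overlapping classes. The list's median was 0.54, and 0.41 without BCB-positive oocyte 3.

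HSF1 is the heat shock transcription factor, which switches on chaperone genes and in the mouse oocyte supports meiosis through HSP90. HSF1 was among the least variable of the factors, with 112, 108 and 119 FPKM across the BCB-negative oocytes and 118, 87.7 and 68.2 FPKM across the BCB-positive ones. A pair of BCB-positive oocytes lay below all BCB-negative oocytes and BCB-positive oocyte 1 within their range. The log2 difference was -0.34 (pooled SD 0.28), and -0.15 without BCB-positive oocyte 3, on 1220 to 1775 counts. Without BCB-positive oocyte 1 it was -0.54, with classes that no longer overlapped. That stayed below the 1.5-fold rule, by which 6.92% of all genes were lower in that comparison. The share of all genes without overlap there was not counted. HSF1 overlaps DGAT1 in the reference annotation, and DGAT1 averaged 19.2 FPKM; whether reads were divided between them was not tested.

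HSF1 had counts for 5 transcripts, of which those of 1990 and 1960 bases led. The transcript of 1960 bases made up 26.7%, 28.7% and 29.9% of HSF1 FPKM in BCB-negative and 32.0%, 41.5% and 31.1% in BCB-positive oocytes. Its share was thus higher in all BCB-positive oocytes, by 6.45 percentage points between class means of 28.4% ± 1.61 and 34.9% ± 5.75 (SD, 3 oocytes each). It was the only such transcript among 13 of NPM2 and HSF1, or 7.69%. That was near the 7.30% of 5523 background transcripts, taken from genes of several transcripts that reached 5 FPKM in each oocyte. The transcript of 1990 bases made up 65.3%, 67.0% and 58.6% in BCB-negative and 59.1%, 51.2% and 57.7% in BCB-positive oocytes, with overlapping classes. In FPKM that transcript was at 73.4, 72.1 and 69.7 in BCB-negative and at 69.6, 44.9 and 39.4 in BCB-positive oocytes, while the 1960-base transcript overlapped at 30.0, 30.9 and 35.5 against 37.6, 36.4 and 21.2.

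**Figure D4:**
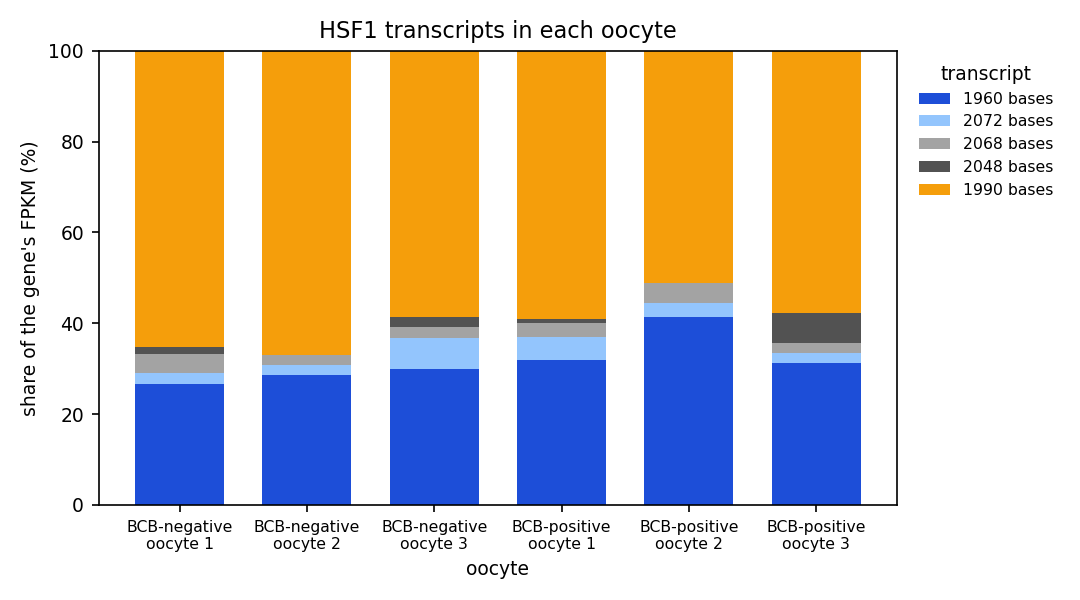
Stacked bars give the percent of HSF1 FPKM held by each of 5 transcripts, named by length, in each oocyte. The 1960-base transcript (dark blue) holds 26.7% to 29.9% in BCB-negative and 31.1% to 41.5% in BCB-positive oocytes.

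NPM2 and HSF1 were the factors with several transcripts and ample reads, with 13 transcripts in all. By the rule of 20 percentage points, 0 of the 13 were apart, so neither gene had a transcript apart. The background by gene was 1956 genes that reached 5 FPKM in each oocyte and had several transcripts. Of these genes, 3.53% had a transcript apart. NPM2 came almost wholly from its transcript of 902 bases, at 95.7%, 96.9% and 97.6% of its FPKM in BCB-negative and 95.7%, 96.7% and 94.9% in BCB-positive oocytes. The low NPM2 of BCB-positive oocyte 3 came with the same leading transcript, at 496 FPKM there against 1259 to 1734 FPKM in the other oocytes. The remaining factors other than ZFP57 each had counts for 1 transcript.

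The genes that HSF1 is known to switch on, with its family and regulators, were listed as 20 symbols, of which 19 were matched and 16 compared. Of these 2 were apart, or 12.5%, both higher in BCB-positive oocytes, beside 5.75% of all genes, and 0 were lower. HSPH1, a disaggregating chaperone, measured 34.6, 27.9 and 31.3 FPKM across the BCB-negative oocytes and 42.4, 45.9 and 93.03 FPKM across the BCB-positive ones; its difference of 0.84 was 0.49 without BCB-positive oocyte 3, below 1.5-fold. PTGES3, the p23 cochaperone of HSP90, averaged 2.79 and 5.45 FPKM, a difference of 0.78 (pooled SD 0.17), and 0.80 without that oocyte. DNAJA1, an HSP40 cochaperone, did not overlap between classes but differed by 0.54, below 1.5-fold. Without regard to size, 3 of the 16 genes were higher without overlap, where 7.44% of all genes were. HSPE1, the mitochondrial cochaperonin, was the most abundant at 943 and 1125 FPKM, and HSF2, a related heat shock factor, averaged 0.58 FPKM and was not compared.

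The class mean was higher in BCB-positive oocytes for 14 of the 16 genes, with a median of 0.62, and for 12 with a median of 0.28 without BCB-positive oocyte 3. As shares these were 87.5% and 75%, where 58% and 54.5% of all genes had a higher class mean. The heat shock genes were not particular in this. The other related lists ran from 72.2% (SWI/SNF) to 90.9% (RNA polymerase I). Without BCB-positive oocyte 3 they ran from 50% (CTCF partners and cohesin) to 90.9% (RAD6 pathway). HSPA8 and HSPB1, named after their values were seen, varied most within a class. HSPA8, the constitutive HSP70, was at 87.8 FPKM in BCB-positive oocyte 2 and at 2.03 to 10.4 FPKM in the others. HSPB1, a small heat shock protein, reached 30.5 FPKM in oocyte 2 and 55.6 FPKM in oocyte 3 of the BCB-negative class and 5.84 FPKM in BCB-positive oocyte 1, and was listed at 0 in the rest.

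UBE2A (HR6A) is a ubiquitin-conjugating enzyme that with RNF20 and RNF40 marks histone H2B and with RAD18 marks PCNA at damaged DNA. UBE2A was the steadiest factor, with 118, 188 and 152 FPKM across the BCB-negative oocytes and 138, 125 and 114 FPKM across the BCB-positive ones. Its highest value was 1.66 times its lowest, and its SD of 0.27 over 6 oocytes on the log2 scale stood at percentile 8.85 of all genes compared, where ZFP57 stood at percentile 99.5. Its log2 difference was -0.26 (pooled SD 0.26). It was -0.43 without BCB-negative oocyte 1, with classes that no longer overlapped, and -0.10 without BCB-negative oocyte 2. The former stayed below the 1.5-fold rule, by which 5.53% of all genes were lower in that comparison. The share of all genes without overlap there was not counted. UBE2A overlaps CXHXorf56 in the reference annotation, a gene with a mean of 264 FPKM, so its value is uncertain.

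UBE2B (HR6B), its near-identical paralog, averaged 22.4 and 20.6 FPKM, and the ratio of UBE2A to UBE2B lay between 4.67 and 7.96 in 5 oocytes and at 16.4 in BCB-positive oocyte 3. Whether reads were divided between the paralogs was not tested. Of 17 symbols listed for the RAD6 pathway 15 were matched and 11 compared; 1 was apart (9.09%, beside 5.75% of all genes), higher in BCB-positive oocytes, and 0 were lower. UBE2N, which builds chains on PCNA, measured 91.3, 121 and 105 FPKM across the BCB-negative oocytes and 133, 167 and 231 FPKM across the BCB-positive ones. Its difference was 0.71, or 0.50 with BCB-positive oocyte 3 left out, below 1.5-fold. WAC, a partner of RNF20 and RNF40, differed by 0.50 with classes that did not overlap. Without regard to size, 2 of the 11 genes were higher without overlap, where 7.44% of all genes were. PCNA, the most abundant, averaged 1726 and 1969 FPKM with overlapping classes, and the list's median was 0.45, and 0.19 without that oocyte.

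Histone chaperones that work beside NPM2 were listed with the nucleoplasmins as 19 symbols, of which 17 were matched and 15 compared. RBBP4, a histone-binding subunit of several complexes, was apart and higher by 0.69, 1 gene of 15 or 6.67% beside 5.75% of all genes, and 0 were lower. That call was lost with size factors, where the classes overlapped, and fell below 1.5-fold without BCB-positive oocyte 3 (0.39) or BCB-negative oocyte 3 (0.49). SET and CHAF1A did not overlap between classes and differed by less than 1.5-fold. Without regard to size, 2 of the 15 genes were higher and 1 lower without overlap, where 7.44% and 4.03% of all genes were. SET, which binds histones and inhibits their acetylation, was higher in BCB-positive oocytes by 0.41, and CHAF1A, of the assembly factor CAF-1, was lower by 0.28 (difference -0.28). The list's median was 0.41, and 0.17 without BCB-positive oocyte 3.

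**Figure D5:**
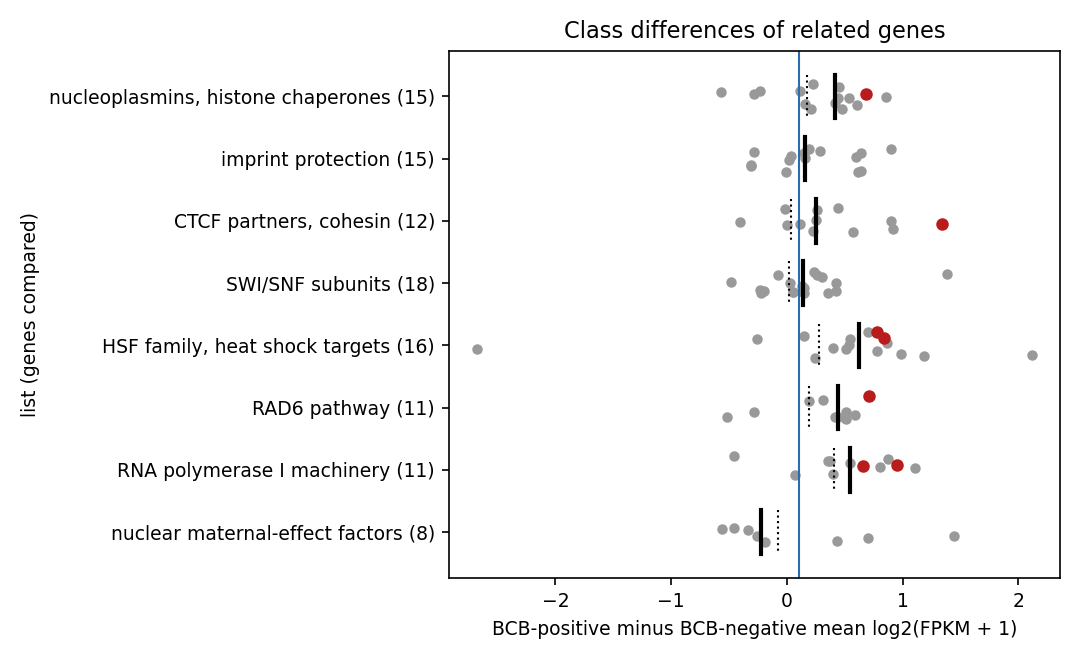
The horizontal axis is the mean log2(FPKM + 1) of BCB-positive oocytes minus that of BCB-negative ones, with a point for each gene compared in the lists on the vertical axis; vertical jitter carries no value. Red points are genes apart by class, black bars list medians, dotted bars medians without BCB-positive oocyte 3 and the blue line the median of all genes (0.11); the 8 factors have a median of -0.22 and no red point.

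BCB-positive oocyte 3 stood apart for most of the factors, as it did for a large part of all genes compared. Its value lay outside the range of the other 5 oocytes for 6 of 8 factors, above for DPPA3 and ZFP57 and below for NPM2, BNC1, HSF1 and UBE2A. The FPKM of this oocyte summed to 668430, against 784781 to 811744 in the others. The place of UBE2A, at 114 FPKM against a lowest of 118 FPKM in the others, depends on that scaling. Over all genes compared, 32.6% lay above and 18.4% below that range in this oocyte. By at least 1.5-fold it lay above all others for 2 factors, DPPA3 and ZFP57, and below for NPM2, where 14.3% of all genes were above and 6.02% below. BCB-positive oocyte 1 lay at least 1.5-fold above all others for BNC1, as it did for 1.88% of all genes.

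The pattern of DPPA3, the factor with the widest range among those of at least 10 FPKM (2.23 on the log2 scale), was matched most closely by MRPL47, UBE2Q1 and FAM35A among 5482 genes. After centring each gene over the 6 oocytes, the root mean square difference from DPPA3 was 0.10, 0.13 and 0.14. MRPL47, a mitochondrial ribosomal protein gene, measured 40.0, 63.1 and 50.7 FPKM across the BCB-negative oocytes and 38.3, 78.5 and 170 FPKM across the BCB-positive ones. With 6 oocytes and so many genes, close matches occur readily, and likeness here is a description.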

How the data were processed

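Each library held a single pig oocyte at the germinal vesicle stage, 3 of each BCB class. Tools named in the submitters' processing notes are RSEM, BWA and Cufflinks, with Sscrofa10.2 as the build, with roles and versions stated in no source used here. As deposited, expected counts are estimated, with reads divided among transcripts. The deposited FPKM values were scaled by the authors to length and mapped fragments. Features without a line for an oocyte were taken as 0.

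Symbols came from RefSeq's table of Sscrofa11.1, from which only names and overlaps between genes were taken. Gene ID gave a match for 13936 of 19300 genes and transcript accession for 3. Differences are BCB-positive minus BCB-negative means of log2(FPKM + 1), for 11493 genes that averaged 1 FPKM or more; on this scale changes of low genes are understated. A gene was called apart where the classes did not overlap and lay at least 1.5-fold apart. The labels name no animal or culture, so each class was 1 sample of 3 cells. No test between classes was run, and SDs are between oocytes. The protocol names no molecular identifiers, so Poisson intervals (95%) cover counting error only.

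The members and lists were chosen with earlier results of these data known. Text names all members, of each related list the most abundant gene and up to 3 non-overlapping genes, members' paralogs, from each marker list its 2 most abundant genes and the 3 genes nearest to the most variable member of at least 10 FPKM. Outside this rule, OOEP, FIGLA, ZP2, STAR, HSPA8 and HSPB1 were named with their values known, and DGAT1 and CXHXorf56 for their overlap with a member. CTCF, SMARCA4 and BNC1 each overlap 1 gene that has only a placeholder symbol. The gene at CTCF averaged 0.57 FPKM, and those at SMARCA4 and BNC1 had no value. Whether reads were divided there was not tested. Alternatives were a pseudocount of 0.1 FPKM, size factors, a common FPKM sum, CPM, other filters, shares of counts for transcripts and leaving out each oocyte. The calling rule was tried on simulated data with independent noise in every oocyte and no outlying cell, unlike BCB-positive oocyte 3. Its outcome backs no result here, and a factor that was not apart may still differ. Python 3.11.15, numpy, pandas and matplotlib were used.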

Additional observations from a re-analysis of the deposited data

How the results depend on the processing

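No paired analysis was possible because the comparisons come from no test and the oocyte numbers pair no cells. The count of factors apart was 0 with a pseudocount of 0.1 FPKM, size factors, a common FPKM sum, CPM and both other filters, and 0 to 3 when an oocyte was left out. The 3 were SMARCA4 (lower) and DPPA3 and ZFP57 (higher) without BCB-positive oocyte 1; NPM2 was lower without BCB-positive oocyte 2, by 0.93 (difference -0.93), and BNC1 higher without BCB-positive oocyte 3. With an oocyte left out, 11.6% to 20.6% of all genes were apart. The median difference of the factors lay between -0.32 and -0.03 over all alternatives. Over the alternatives CTCF ran from -0.49 to 0.03 and BNC1 from -0.15 to 1.04; the other 6 kept their sign. Counts of all genes apart were 411 higher and 192 lower at a mean of 5 FPKM, and 826 to 1574 and 506 to 795 with an oocyte left out, where fewer cells need to be ordered. Transcripts apart numbered 0 with shares of counts and 0 to 2 with an oocyte left out; the 2 were of ZFP57, with 1 BCB-negative oocyte left that had counts. Genes apart in the related lists, with an oocyte left out, numbered 0 to 4 for nucleoplasmins and chaperones, 0 to 3 for imprint protection, 1 to 4 for CTCF partners, 0 to 2 for SWI/SNF, 1 to 8 for heat shock genes, 0 to 7 for the RAD6 pathway and 2 to 4 for RNA polymerase I. With size factors the chaperones and RNA polymerase I had 0. Depth limits SMARCA4, BNC1 and ZFP57, which had as few as 5, 8 and 0 counts in an oocyte.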
